A study of Mus musculus with 11 samples.

Results

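miR-184-3p (mmu-miR-184-3p in the table) is a mature miRNA cut from the 3′ arm of the hairpin Mir184. It was chosen by its row in the count table as one of the largest falls in Dicer cKO and in Drosha cKO sperm among miRNAs outside the known clusters, so its sperm levels against WT are described here without a test. It is 1 of the 2304 features in the table, of which 1592 are mature miRNAs and 712 are endogenous siRNAs, and it is followed across all 11 libraries. The study profiled small RNAs of mouse gametes and early embryos after germ line conditional knockout (cKO) of Dicer or Drosha in the male. The groups are sperm from the cauda epididymis of adult Dicer cKO males (2 libraries), Drosha cKO males (3 libraries) and wild-type (WT) males (2 libraries). There is also 1 library each of 2PN embryos, the stage with 2 pronuclei, made by sperm injection with Dicer cKO, Drosha cKO or WT sperm, and 1 library of superovulated WT oocytes. All are on the C57BL/6 background and the knockouts were made with floxed alleles and Cre, whose promoter the sources used here do not name. Nothing in the labels ties a library to its own animal, so p-values cover only the spread among these libraries, which may be technical. Small RNA counts hold no value for the Dicer or Drosha transcripts, and the deletion was not checked.

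Drosha cuts the hairpin of a miRNA out of its primary transcript in the nucleus, and Dicer cuts the loop off that hairpin in the cytoplasm, leaving a short duplex of which mainly one strand is kept. miR-184 is a conserved miRNA known for its high level in the lens and the corneal epithelium, where in humans a change in its seed causes disease of the anterior eye. In Drosophila its loss disturbs the female germ line, and in the mouse testis it has been described in germ cells.

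The sequences below, from RefSeq on GRCm38.p6, show the hairpin with the 3p arm in capitals, then both arms with the seed (bases 2 to 8) in capitals, because the reads counted here fell almost wholly on the 3p arm.
Mir184 hairpin: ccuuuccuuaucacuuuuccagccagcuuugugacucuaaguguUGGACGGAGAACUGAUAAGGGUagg
miR-184-3p: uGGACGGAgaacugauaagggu
miR-184-5p: cCUUAUCAcuuuuccagccagc

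The hairpin is 69 bases long and lies on the minus strand of chromosome 9 at 89802260 to 89802328, with the 3p arm at 89802263 to 89802284. No other RefSeq gene overlaps it. The nearest genes are the lncRNA 4930524O08Rik, 24191 bases away, and the protein-coding Ankrd34c, 63525 bases away. The nearest other miRNA hairpin on the chromosome, Mir6386, is 2464930 bases away, so miR-184 has no neighbouring hairpin with which it could share a primary transcript at short range. Its seed is its own: none of the other mature miRNAs among 1679 sequences in the RefSeq table shares bases 2 to 8, and none shares bases 2 to 7. The 3p arm starts with U, as do 53.5% of the 260 tested miRNAs with a sequence in that table, and the 5p arm starts with C. Folded with RNAfold, the hairpin had a minimum free energy of −29.0 kcal/mol, with 18 of the 22 bases of the 3p arm paired and 19 of 22 bases of the 5p arm.

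The 3p arm was the arm recovered. Over the 11 libraries it had 751 reads and the 5p arm had 3, all 3 of them in WT sperm replicate 2. In that library the 3p arm held 99.4% of the reads of the hairpin (95% exact interval 98.3 to 99.9). The 5p arm had 0 reads in Dicer cKO, Drosha cKO, oocyte and 2PN libraries, so a change in the use of the arms was not detectable at this depth.

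Depth differed widely. Listed reads, the sum of the table per library, were 122989 and 108141 in Dicer cKO libraries, between 12003 and 100934 for Drosha cKO sperm, 73377 and 278890 for WT sperm, 2951 to 8967 in the 2PN libraries and 5530 in the oocyte library. A floor of 3 reads stood at 24.4 and 27.7 CPM (reads per 1000000 listed reads) for Dicer cKO, 29.7 to 249.9 CPM in Drosha cKO sperm and 10.8 to 40.9 CPM in WT sperm. It stood at 334.6 to 1016.6 CPM in 2PN libraries and 542.5 CPM in the oocyte library. Intervals and floors cover counting error only.

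Little miR-184-3p was left in the sperm of either knockout. The count was 7 and 7 reads in Dicer cKO sperm, 18, 2 and 2 reads in Drosha cKO sperm, and 196 and 519 reads in WT sperm. Scaled to listed reads, this was 56.9 and 64.7 CPM in Dicer cKO sperm, 178, 167 and 126 CPM in Drosha cKO sperm, and 2671 and 1861 CPM in WT sperm. No cKO library came near a WT library, and every Drosha cKO library was above both Dicer cKO libraries. The 95% exact intervals of the shares ran from 22.9 to 133 CPM over the Dicer cKO libraries, from 15.2 to 602 CPM over the Drosha cKO libraries and from 1704 to 3072 CPM over the WT libraries. Both shallow Drosha cKO libraries rest on 2 reads each, which is under the floor of 3 reads. In bulk sperm RNA, fewer cells that carry a miRNA and less of it per cell cannot be told apart.

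Means were 60.8 ± 5.53 CPM in Dicer cKO sperm (SD, n = 2), 157 ± 27.7 CPM in Drosha cKO sperm (n = 3) and 2266 ± 573 CPM in WT sperm (n = 2). The Dicer cKO mean was 2.68% of the WT mean, 37.3-fold lower, and the Drosha cKO mean was 6.92% of it, 14.4-fold lower. In the edgeR fit the log2 change was −5.83 (SE 0.735) in Dicer cKO sperm and −4.66 (SE 0.622) in Drosha cKO sperm. These correspond to 56.9-fold and 25.4-fold, more than the ratios of CPM means, because the fit also uses TMM factors (library scaling estimated from the bulk of features), which were 1.05 in both Dicer cKO libraries, 1.20 to 1.31 in Drosha cKO and 0.907 and 0.493 in WT. Over all 335 tested features, 31.0% were called lower and 16.1% higher in Dicer cKO sperm, and 33.1% lower and 22.1% higher in Drosha cKO sperm. The lower calls, 104 and 111, stayed within 89 to 129 under other scalings and without any 1 library. The higher calls were less stable: the 54 in Dicer cKO became 101 with library totals alone, 33 without WT replicate 2, and 19 and 23 without Dicer cKO replicate 1 or 2. The 74 in Drosha cKO became 134 with library totals alone, 29 and 43 without WT replicate 1 or 2, 26 and 31 without Dicer cKO replicate 1 or 2, and 31 without both shallow libraries. The groups of miR-184-3p did not overlap in CPM, as was so for 34.9% of tested features, lower in Dicer cKO, and 30.1%, lower in Drosha cKO. Both comparisons share the same 2 WT libraries.

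**Figure D1:**
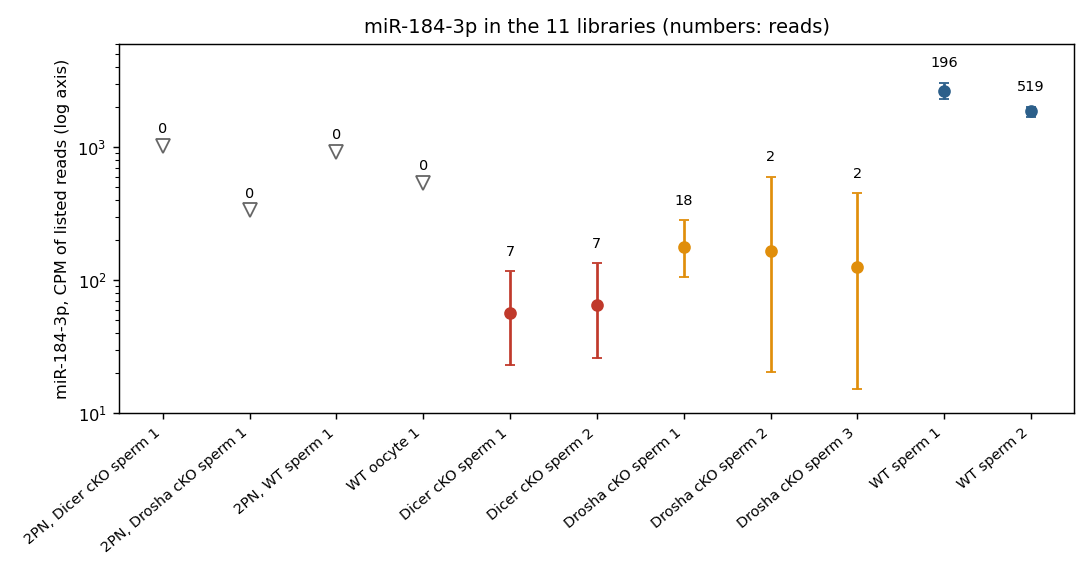
miR-184-3p in each of the 11 libraries, as CPM of listed reads on a log axis, with 95% exact intervals and the number of reads above each point; open triangles mark libraries with 0 reads at their floor of 3 reads. Dicer cKO sperm sit at 56.9 and 64.7 CPM, Drosha cKO sperm at 126 to 178 CPM and WT sperm at 1861 and 2671 CPM.

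Its place among the features of each library moved in the same way. By reads, miR-184-3p ranked 299 of 871 and 292 of 852 features with a read in Dicer cKO sperm. It ranked 212 of 1108, 206 of 419 and 270 of 562 in Drosha cKO sperm. In WT sperm it ranked 53 of 1377 and 62 of 1108, and 59 by mean CPM. In WT sperm it held 0.267% and 0.186% of listed reads. The most abundant feature there, miR-19b-3p, a mature form given by 2 hairpins, had 91364 and 101201 CPM.

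In order of log2 change, miR-184-3p was the sixth largest fall of 335 in Dicer cKO sperm. Just above it stood miR-297c-5p (−5.90), on 1 read in Dicer cKO sperm and 77 in WT sperm, and just below it miR-34c-3p (−5.67), on 47 and 2117 reads. Its SE of 0.735 was smaller than those of the 5 features above it, 0.919 to 1.649, which had 0 to 5 reads in Dicer cKO sperm. In Drosha cKO sperm it was fifteenth, between miR-669f-3p (−4.68) and miR-669d-5p (−4.62), both of the cluster in an intron of Sfmbt2.

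**Figure D2:**
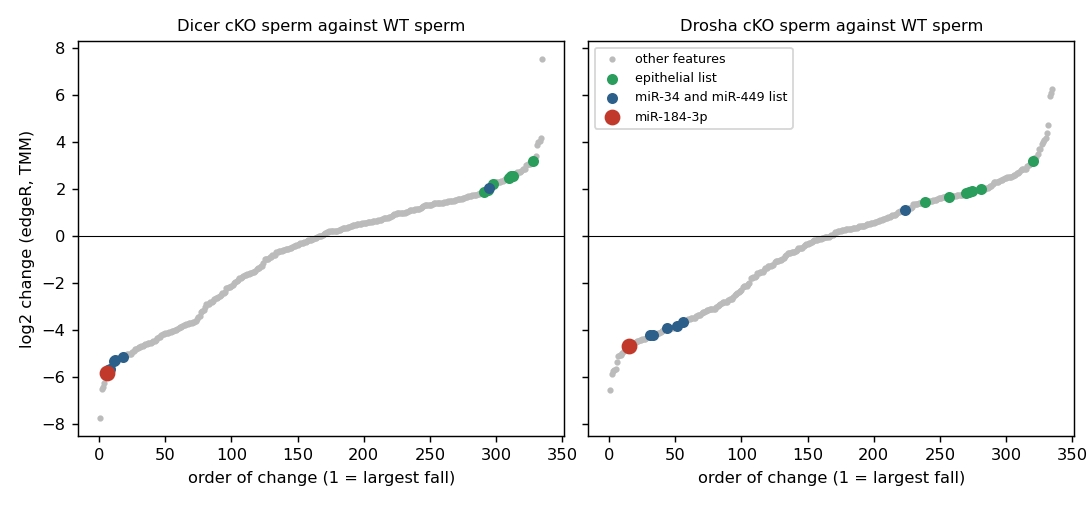
The log2 change of all 335 tested features in order, for Dicer cKO against WT sperm (left) and Drosha cKO against WT sperm (right), with miR-184-3p in red, the miR-34 and miR-449 list in blue and the miR-200 and miR-141 list in green. miR-184-3p lies at the low end, at −5.83 and −4.66; 5 of the miR-34 and miR-449 list lie close behind it in Dicer cKO (−5.67 to −5.13) and further behind in Drosha cKO (−4.19 to −3.65).

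The deposited RPM values (reads scaled by the authors to a library total of their own) gave the same direction with other spacing. miR-184-3p had 2.52 and 4.54 RPM in Dicer cKO sperm, 4.81, 4.85 and 2.65 RPM in Drosha cKO sperm, and 57.6 and 187 RPM in WT sperm. The WT libraries lie further apart here, with a mean of 122 ± 91.6 RPM (SD, n = 2), than in CPM, where WT replicate 1 was the higher one. The Drosha cKO mean of 4.10 ± 1.26 RPM (n = 3) was 3.35% of the WT mean, about as low as the Dicer cKO mean of 3.53 ± 1.43 RPM (n = 2), at 2.88% of WT.

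Whether the residue of miR-184-3p differs between the knockouts is a comparison that the choice of the miRNA did not use, although being low in both favours a small difference. Dicer cKO sperm stood at 38.8% of the Drosha cKO level in CPM. Both Dicer cKO libraries were lower than any of the 3 Drosha cKO libraries, and 23.9% of tested features were likewise lower without overlap. That order rests partly on 2 reads in each of Drosha cKO replicates 2 and 3. Their exact intervals, 20.2 to 602 and 15.2 to 454 CPM, cover both Dicer cKO values. The edgeR log2 difference was −1.17 (SE 0.683, 95% interval −2.61 to 0.28) and did not pass the test (edgeR quasi-likelihood, two-sided, adjusted p = 0.357). In this comparison edgeR called 0 of 335 features, or 0.0%, with 65 at an unadjusted p under 0.05, while DESeq2 called 16 and limma on RPM called 2. The 0 depends on single libraries: edgeR called 13 lower and 23 higher without WT replicate 1, 28 lower and 7 higher without WT replicate 2, 7 lower without Drosha cKO replicate 2, 1 higher without Dicer cKO replicate 1, and 11 lower with library totals alone. miR-184-3p itself did not pass in any of these. In RPM the groups overlapped, at 86.0% of the Drosha cKO mean, and with the authors' library totals in the edgeR fit the difference shrank to −0.26 (adjusted p = 0.892).

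The summed markers of other cell types rose where miR-184-3p fell, though not every member did. The summed miR-200 and miR-141 list, which marks epithelium, held 13.1% and 16.1% of listed reads in Dicer cKO libraries, between 11.1% and 14.0% for Drosha cKO, and 1.59% and 1.81% for WT. The blood cell list held 5.17% and 5.16% in Dicer cKO libraries, between 2.26% and 2.56% for Drosha cKO, and 0.542% and 0.527% for WT. miR-451a supplied 4127 of its 6354 reads in Dicer cKO replicate 1 and 1462 of 2281 in Drosha cKO replicate 1. Of its 8 tested members, 5 were called higher and 0 lower in Dicer cKO, beside 16.1% and 31.0% of all features. In Drosha cKO 4 were called higher and 1, miR-142-5p (−2.68), lower, beside 22.1% and 33.1%. miR-142-3p changed by −0.785 there. The counts moved when single libraries were left out. The stromal and smooth muscle list held 1.89% to 2.62%, 1.10% to 1.70% and 0.316% to 0.801% in the same order of groups. miR-145a-5p supplied 1224 of its 1715 reads in Drosha cKO replicate 1 and 327 of 588 in WT replicate 1. Of its 5 tested members, 2 were called higher in Dicer cKO and 0 in Drosha cKO, beside 16.1% and 22.1% of all features. In both comparisons 0 were called lower, beside 31.0% and 33.1%. The 2 became 0 without WT replicate 2, and with library totals alone the counts were 4 and 2. Of 9 epithelial members 9 had reads in both Dicer cKO libraries, 6 to 9 in Drosha cKO and 7 and 9 in WT libraries, the ones at 0 being minor 5p arms (miR-200a-5p, miR-200c-5p, miR-141-5p). All 8 listed blood markers had reads in every sperm library but Drosha cKO replicate 3, where miR-155-5p was at 0. Of 8 stromal members, miR-145a-3p was at 0 in all Drosha cKO and WT libraries. The part of these cells in the level of miR-184-3p was not tested.

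Ratios within a library need no scaling between libraries. Per 1000 reads of the miR-200 and miR-141 list, miR-184-3p had 0.435 and 0.401 reads in Dicer cKO libraries, between 1.13 and 1.55 for Drosha cKO, and 168 and 103 for WT. Per 1000 reads of the miR-34 and miR-449 list, which marks male germ cells and ciliated epithelia, it had 4.25 and 5.15 reads in Dicer cKO sperm, 6.14, 9.57 and 5.29 in Drosha cKO sperm and 14.7 and 11.4 in WT sperm. Since miR-184-3p was chosen for its fall, lower ratios to either list in cKO sperm are favoured and are no finding. The level relative to the miR-34 and miR-449 list was 36.0% of WT in Dicer cKO sperm and 53.6% in Drosha cKO sperm. This ratio leans on miR-34a-5p, a member of the list made in many cell types, which supplied 45.1% of the list's reads in Dicer cKO libraries, 15.0% for Drosha cKO and 0.515% for WT. Without miR-34a-5p, a choice made after its values were seen, miR-184-3p had 7.99 and 9.02 reads per 1000 in Dicer cKO libraries, 7.20, 11.4 and 6.33 for Drosha cKO, and 14.8 and 11.5 for WT. The knockouts then stood at 64.9% of WT for Dicer cKO and 63.4% for Drosha cKO, with Drosha cKO replicate 2, on 2 reads, level with WT replicate 2. Against miR-34b-5p alone, the most abundant of that list, it was 17.9 and 18.7 reads per 1000 in Dicer cKO libraries, between 17.0 and 27.4 for Drosha cKO and no lower than 25.6 for WT, so that Drosha cKO replicate 2, on 2 reads, lay above WT replicate 2.

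**Figure D3:**
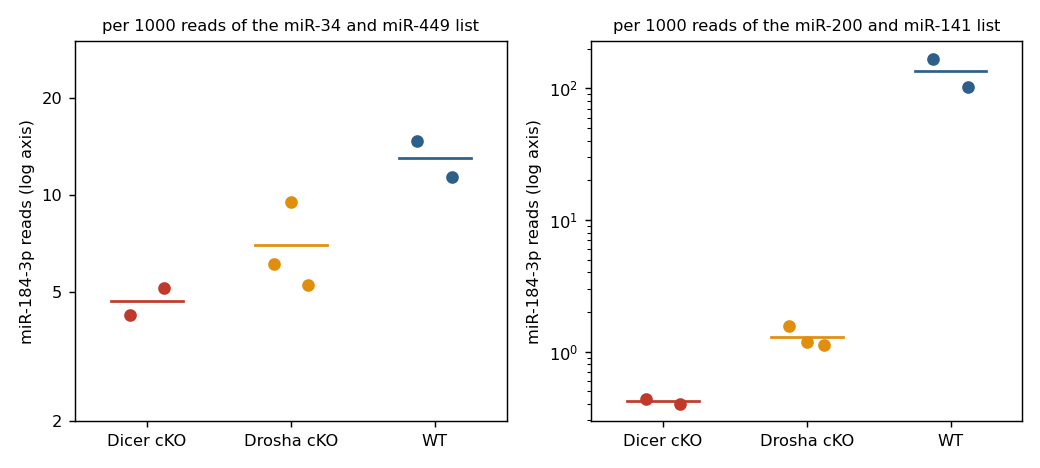
miR-184-3p reads per 1000 reads of the miR-34 and miR-449 list (left) and of the miR-200 and miR-141 list (right) within each sperm library, on log axes; points are libraries and lines are group means. Relative to the germ cell list, miR-34a-5p included, it stands at 4.25 to 9.57 in cKO sperm and 11.4 to 14.7 in WT sperm. Relative to the epithelial list it stands at 0.401 to 1.55 and 103 to 168. The choice of miR-184-3p for its fall favours lower ratios in cKO sperm.

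miR-184 is itself an epithelial miRNA in the eye, so miRNAs of the cornea, lens and keratinocytes were set beside it. The list of 5 held 1.33% and 0.898% of listed reads in Dicer cKO libraries, between 0.873% and 1.15% for Drosha cKO, and 0.297% and 0.113% for WT, the opposite direction to miR-184-3p. Its members included miR-205-5p, a keratinocyte miRNA, at 4364 ± 2131 CPM in Dicer cKO sperm, 3813 ± 33.0 CPM in Drosha cKO sperm and 521 ± 381 CPM in WT sperm. miR-31-5p, of keratinocytes and cornea, had 3933 ± 291 CPM, 4649 ± 827 CPM and 1067 ± 708 CPM in the same groups. Of the 4 members tested, 3 rose and 0 fell in Dicer cKO and in Drosha cKO sperm, beside 16.1% and 22.1% of all features called higher, with medians of 2.00 and 1.51 beside 0.03 and 0.05 over all features. The counts are fragile: 3 became 0 without Dicer cKO replicate 1 in the Dicer comparison, and in the Drosha comparison 1 with DESeq2 size factors or without WT replicate 1 and 0 without WT replicate 2, either Dicer cKO library or the shallow Drosha cKO libraries. miR-203-3p, of keratinocytes, changed by 1.42 and 0.97 and did not pass the test (edgeR adjusted p = 0.112 and 0.225), and miR-211-5p was not tested. Per 1000 reads of this list miR-184-3p had 4.29 and 7.21 reads in Dicer cKO libraries, between 14.4 and 16.0 for Drosha cKO, and 899 and 1642 for WT. Since miR-184-3p was chosen for its fall, the lower ratio and the direction opposite to a list that rose are no finding. The source of miR-184-3p was not tested.

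The germ cell list moved with miR-184-3p. Within the miR-34 and miR-449 list 6 were tested, of which 5 fell in Dicer cKO sperm (median of the 6, −5.30) and 5 in Drosha cKO sperm (median −3.87), beside 31.0% and 33.1% of all features called lower. The sixth, miR-34a-5p, rose by 2.04 in Dicer cKO (edgeR adjusted p = 0.007), where 16.1% of features were called higher, and changed by 1.13 in Drosha cKO (edgeR adjusted p = 0.0738). The 5 stayed 5 with DESeq2 size factors, with library totals alone and without any 1 library. The rise of miR-34a-5p in Dicer cKO was no longer called when replicate 1 of WT or of Dicer cKO was left out, and in Drosha cKO it was called higher with library totals alone and without Drosha cKO replicate 2. miR-451a, a red cell miRNA cut by Drosha and then Ago2 without Dicer, rose by 3.07 on the log2 scale in Dicer cKO libraries (edgeR adjusted p = 0.000239, SE 0.496). It rose by 1.41 in Drosha cKO libraries (edgeR adjusted p = 0.013), which no longer passed when any 1 of the WT or Dicer cKO libraries was left out. The 3 tested miRNAs made without Drosha, miR-484, miR-320-3p and miR-1981-5p, had medians of 0.26 and 0.71, with 0 past the test in either comparison. They became 1 higher with library totals alone and without WT replicate 1, in both comparisons.

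Other miRNAs that lie alone in the genome are given for context; since miR-184-3p was chosen for its fall, its distance from them is no finding. Of 904 other listed miRNAs with no second hairpin within 10000 bases, 121 were tested. Of these, 13 were called lower and 19 higher in Dicer cKO sperm, or 10.7% lower (median 0.60), beside 31.0% of all tested features. In Drosha cKO sperm 15 were lower and 31 higher, or 12.4% lower (median 0.81), beside 33.1%. The 13 became 8 without Dicer cKO replicate 2 and 21 without the shallow Drosha cKO libraries, and the 15 became 8 with library totals alone. The 19 became 44 with library totals alone, 11 without WT replicate 2 and 7 without either Dicer cKO library. The 31 became 64 with library totals alone, 13 and 14 without WT replicate 1 or 2, 9 and 11 without Dicer cKO replicate 1 or 2, and 15 without the shallow Drosha cKO libraries. The lone miRNAs most abundant by mean CPM over all 7 sperm libraries were miR-10a-5p, miR-21a-5p and miR-10b-5p. They changed by 2.43, 1.52 and 2.42 in Dicer cKO sperm and by 1.82, 0.59 and 1.77 in Drosha cKO sperm. Of these, miR-21a-5p did not pass the test in Drosha cKO (edgeR adjusted p = 0.206). That mean includes the cKO libraries, so features high in cKO sperm are favoured. The lone miR-340-5p, named after its values were seen, had a WT mean of 5488 CPM, above 5183 CPM for miR-10b-5p. It changed by −2.624 in Dicer cKO and by −3.225 in Drosha cKO sperm.

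Across the 7 sperm libraries, the features most like miR-184-3p were ranked by the root mean square difference of TMM-scaled log2 CPM after each was centred on its own mean. They were miR-34c-5p (0.28), miR-34b-5p (0.30), miR-743a-3p (0.36), miR-18a-5p (0.37), miR-449a-5p (0.48), miR-881-3p (0.56), miR-293-3p (0.60) and miR-34b-3p (0.61). Pearson's r of log2 CPM with miR-184-3p was 0.963 to 0.992 over these 7 libraries, as a description, since the WT against cKO step sets most of it. Of the 8, 4 belong to the miR-34 and miR-449 family of male germ cells, miR-743a-3p and miR-881-3p to the X-linked testis miRNAs, miR-18a-5p to the miR-17-92 cluster of dividing cells and miR-293-3p to the miR-290-295 cluster of early embryos. Likeness to a miRNA chosen for its fall favours other large falls, so the families of the 8 are a description only. None of the 8 is a lone miRNA and they come from chromosomes 7, 9, 13, 14 and X where the table gives a position.

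The mature sequences of 7 of these 8 follow, with seeds in capitals to be read against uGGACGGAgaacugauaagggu; miR-34c-5p is named only. None of the 7 has the seed of miR-184-3p, and miR-34b-5p and miR-449a-5p share a seed with each other.
miR-34b-5p: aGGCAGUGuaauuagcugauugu
miR-449a-5p: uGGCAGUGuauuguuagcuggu
miR-743a-3p: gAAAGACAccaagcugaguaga
miR-18a-5p: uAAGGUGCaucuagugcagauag
miR-881-3p: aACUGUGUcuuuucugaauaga
miR-293-3p: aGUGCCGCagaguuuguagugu
miR-34b-3p: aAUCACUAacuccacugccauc

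The closest, miR-34c-5p, had 2228 and 2395 CPM in Dicer cKO sperm, 8342, 4166 and 5213 CPM in Drosha cKO sperm, and 64993 and 50823 CPM in WT sperm. As for miR-184-3p, WT replicate 1 was above replicate 2 in CPM of listed reads (the TMM factors turn that order round), and every Drosha cKO library was above the Dicer cKO libraries. Because miR-34c-5p was ranked by its likeness over these same libraries, a shared order is favoured and is no finding. The log2 changes of miR-34c-5p were −5.31 and −4.19 beside −5.83 and −4.66 for miR-184-3p, at a WT level more than an order of magnitude higher. For miR-743a-3p the changes were −4.99 and −4.55, for miR-449a-5p −5.28 and −3.82, and for miR-18a-5p −5.01 and −4.06.

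**Figure D4:**
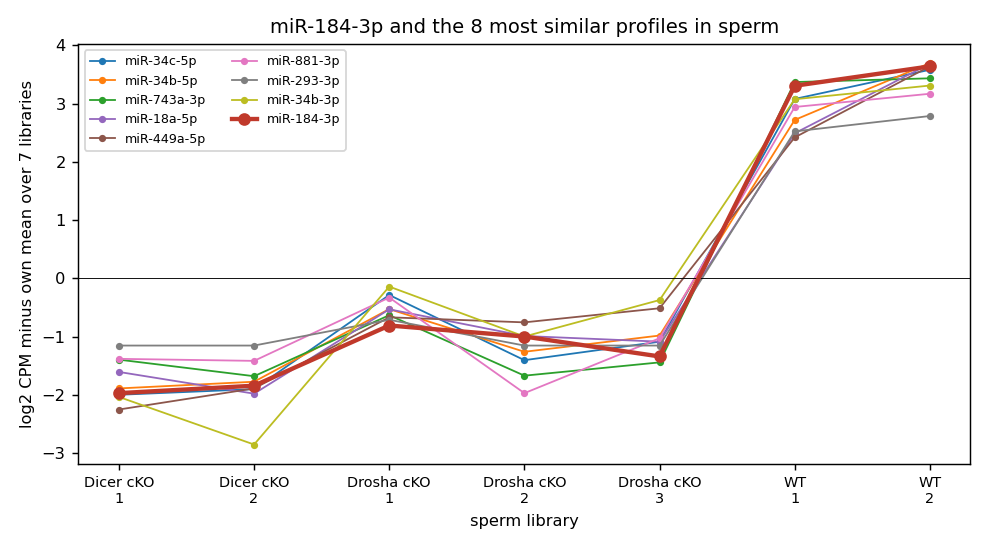
Log2 CPM after TMM scaling (prior count 2) of miR-184-3p (thick red line) and the 8 most similar features in the 7 sperm libraries, each minus its own mean. All 9 lie below 0 in the cKO libraries and above 2 in both WT libraries; lines join libraries for reading only.

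miR-184-3p was not seen outside sperm. It had 0 reads in the 2PN libraries from Dicer cKO sperm, from Drosha cKO sperm and from WT sperm, and 0 reads in the WT oocyte library. The exact intervals of these shares reached 0.125%, 0.0411% and 0.114% of listed reads in the 2PN libraries and 0.0667% in the oocyte library. The floor of 3 reads stood lower, at 0.102%, 0.0335% and 0.0925% in the 2PN libraries and 0.0542% in the oocyte library. WT sperm replicates 1 and 2 stood 4.92-fold and 3.43-fold above the floor of 3 reads in the oocyte library, counting error in WT sperm left out. The exact interval of the oocyte library reached 667 CPM, and those of WT sperm replicates 1 and 2 began at 2311 and 1704 CPM. At the WT sperm shares, 14.8 and 10.3 reads would have been counted in the oocyte library and 8.66 and 6.04 in the 2PN library from WT sperm. At the cKO sperm shares the oocyte library would have held 0.315 to 0.986 reads. On the scale of listed reads a level like that of cKO sperm was therefore not detectable there. On the deposited RPM scale the same sums gave 65.1 and 212 reads for the oocyte library at the WT sperm level. At the cKO levels they gave 2.85 to 5.48 reads, from just under to above the floor of 3 reads.

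With 0 reads in all 4 libraries, the 2PN groups could not be compared with each other or with the oocyte, and no fold is given. Delivery of miR-184-3p by WT sperm to the embryo was not detectable at this depth. The reads counted at sperm shares treat the whole 2PN library as sperm RNA. They are no expectation for an embryo, since the sperm's part of its RNA was not measured. Of the 58 features above miR-184-3p in mean WT sperm CPM, 50 had a read in at least 1 oocyte or 2PN library. The 8 without one were miR-449a-5p, miR-743a-3p, miR-743b-3p, miR-880-3p, miR-463-5p, miR-742-3p, miR-466a-3p and miR-878-3p. Of 50 other features within 2-fold of its WT sperm level, 36 had such a read. Among the 8 features most like it in sperm, miR-743a-3p, miR-449a-5p and miR-881-3p also had 0 reads in all 4 libraries. miR-293-3p went the other way, with 4, 48 and 35 reads in the 2PN libraries from Dicer cKO, Drosha cKO and WT sperm and 47 in the oocyte library, beside 0, 1 and 64 reads summed over Dicer cKO, Drosha cKO and WT sperm.

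**Figure D5:**
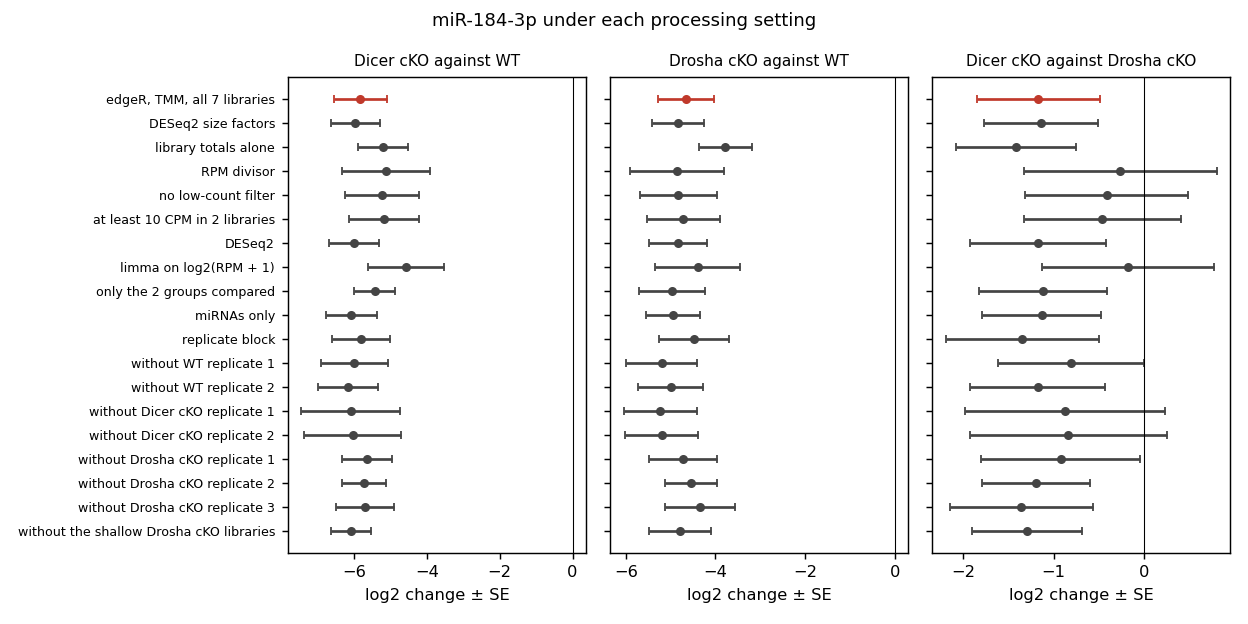
The edgeR, DESeq2 or limma log2 change of miR-184-3p (point) with its SE (bar) under each processing setting, for the 3 sperm comparisons, with the fit used in the text in red at the top. Against WT all points lie between −6.18 and −3.79; Dicer cKO against Drosha cKO lies between −1.42 and −0.18.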

How the data were processed

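Small RNA reads of 11 mouse libraries were deposited by the authors as raw counts per feature and as RPM. Bowtie and mm10 are named in the submitters' processing notes; their versions, the counting rule and the miRNA release: not given in the sources used here. The series text names Ion Torrent Proton, the labels' protocols an Illumina preparation. Each deposited RPM value is the count divided by 1 whole number per library (within 0.0054), of which listed reads were 0.196% to 10.1%; what it counts is not given. Sperm counts were fitted with edgeR 4.0.16 in R 4.3.3 (all 7 libraries, default expression filter, 335 features, TMM, quasi-likelihood, Benjamini-Hochberg at 0.05), and tested on simulated data. DESeq2 1.42.0 and limma 3.58.1 on log2(RPM + 1) were alternatives. CPM uses listed reads; intervals are 95% Clopper-Pearson (scipy 1.17.1). Replicates differed beyond counting error (chi-square per degree of freedom 5.74 to 42.0). Sequences and positions are RefSeq GRCm38.p6, which is mm10; 1333 of 1592 miRNAs matched by name, and the older genome provided was not used. Folding used ViennaRNA 2.7.2. The named features are miR-184-3p, its other arm, its neighbours in order of change, the 8 most alike (mean of at least 10 CPM, prior count 2), the 3 most abundant of each list and the most abundant of each group; others are said to be chosen after their values. The member, lists and tests were chosen with earlier results of these data known.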

Additional observations from a re-analysis of the deposited data

How the results depend on the processing

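miR-184-3p kept its direction in all 3 sperm comparisons under all 18 alternatives, of which leaving out the shallow Drosha cKO libraries was added after seeing the data. The log2 change in Dicer cKO sperm, −5.83, became −5.20 with library totals alone, −5.12 with the RPM divisor, −5.24 without a low-count filter, −5.18 with at least 10 CPM in 2 libraries, −6.01 with DESeq2, −4.57 with limma, −5.44 with only the 2 groups compared, −6.08 with miRNAs only and −6.08 without the shallow Drosha cKO libraries; leaving out 1 library gave −6.18 to −5.65. In Drosha cKO sperm, −4.66 became −3.79 with library totals alone, −4.40 with limma, −4.97 with only the 2 groups compared and −4.95 with miRNAs only; leaving out 1 library gave −5.23 to −4.34. Dicer cKO against Drosha cKO stayed short of the threshold (adjusted p from 0.212 to 1.0), with −1.36 to −0.80 leaving out 1 library. The Drosha cKO mean, 6.92% of WT in CPM, was 3.35% in RPM, and Dicer cKO stood at 86.0% of Drosha cKO there, against 38.8% in CPM. In RPM the 2 WT sperm libraries stood 21.7-fold and 70.5-fold above the floor of 3 reads in the oocyte library. Against miR-34b-5p alone, the Dicer cKO level was 55.8% of WT, and against the list without miR-34a-5p, an alternative also added after seeing the data, 64.9%, beside 36.0% for the whole list. The cause of these shifts was not tested. With the replicate number as a block, the changes were −5.82, −4.48 and −1.35. Same-numbered libraries deviated together with r of 0.181 to 0.312, but nothing ties a number to a shared animal or batch. Of the 8 most alike, 6 were shared when ranked by Pearson's r and 8 under the other 2 settings. The 2PN comparisons gave no value under RPM either, with 0 reads on both sides. The 2 reads in each shallow Drosha cKO library, and 0 reads in oocyte and 2PN libraries, limit what can be said of low levels.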

Other observations

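Other lone miRNAs that fell in the sperm of both knockouts, named here after their values were seen, included miR-350-3p, miR-301a-3p and miR-701-5p. miR-350-3p, at a similar WT level, had means of 335 CPM in Dicer cKO sperm, 213 CPM in Drosha cKO sperm and 2437 CPM in WT sperm, with log2 changes of −3.62 (edgeR adjusted p = 0.000693) for Dicer cKO and −4.59 for Drosha cKO (edgeR adjusted p = 7.58e-05). miR-301a-3p had 277, 263 and 2012 CPM in the same groups, with changes of −3.66 and −3.74. Both had higher means in Dicer cKO than in Drosha cKO sperm, where miR-184-3p had the lower one, but no feature passed edgeR's test between the knockouts with all 7 libraries, a count of 0 that leaving out either WT library moves. miR-701-5p changed by −4.47 and −5.10, on 3 reads in Dicer cKO, 1 in Drosha cKO and 60 in WT sperm, and it too had 0 reads in the oocyte and 2PN libraries.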
